A study of Mus musculus with 2 samples.

Results

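The 10 genes described here lie in the nuclear genome, and the products of 5 act in transcription of mitochondrial DNA, 4 in its replication and 1, Tfb1m, in modification of its ribosomal RNA. They are Tfam, Tfb2m, Polrmt, Tefm, Mterf3, Tfb1m, Polg, Polg2, Ssbp1 and Mgme1. The genes were chosen as a list of symbols, and all 10 were found among the 21000 protein-coding genes of the mm10 RefSeq annotation. The question was whether the transcription factor NRF1, nuclear respiratory factor 1, occupied their promoters in skeletal muscle. The study profiled NRF1 by chromatin immunoprecipitation followed by sequencing (ChIP-seq) in muscle of wild-type mice, to relate its sites to those of the glucocorticoid receptor and LSD1. The labels give 2 libraries, both from wild-type skeletal muscle and both with the NRF1 antibody, no treatment and no age. Replicate 2 carries this antibody in its label but is given as input DNA in the study's reporting summary. All peaks carry the title of the library of replicate 1, so every value below comes from 1 peak list and has no replicate error.

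Mitochondria keep a small circular genome of their own, but every protein that copies or reads it is encoded in the nucleus and imported. A single-subunit RNA polymerase, POLRMT, starts transcription together with TFAM and TFB2M, and its short transcripts also prime replication by the POLG polymerase. NRF1 is known for driving nuclear genes of the respiratory chain, and the human TFAM gene is a textbook NRF1 target. A ChIP-seq peak marks a place where fragments pulled down with the antibody pile up over the control, and its summit is the point of highest signal. Fold enrichment is the ratio of that signal to the control background, as the peak caller gave it.

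Of the 10 genes, 2 had a promoter peak, Polrmt and Tfb2m. At a q of at most 1e-05 or a fold enrichment of at least 5 only Polrmt had one, and the weak peak at Tfb2m was shared with the gene Cnst. A promoter peak had its summit between 1000 bp upstream and 100 bp downstream of any annotated start of a known transcript. The other 8, Tfam among them, had none. Over all protein-coding genes the share with a promoter peak was 13.4%, or 2808 of 21000, and the 2 of 10 here is not far from it. The count is therefore no result about the group as a whole, and what follows describes the individual promoters.

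The promoter sequences that carry these findings are shown first, from the GRCm38 (mm10) assembly, 5′ to 3′ on the strand of the gene. Position 0 is the first transcribed base of the RefSeq transcript and upstream positions are negative. Capitals mark copies of the palindrome that NRF1 binds, GCGCATGCGC, with at most 1 mismatch. Polrmt is shown from position -140 to 15 (chr10:79746566-79746721, minus strand), because it has the strongest peak of the group. Tfb2m is shown from -80 to 25 (chr1:179546251-179546356, minus strand), as the only other promoter with a peak. Tfam is shown from -150 to -1 (chr10:71238045-71238194, minus strand), as the best-known candidate without one. Tfb1m is shown from -910 to -870 (chr17:3558625-3558665, minus strand), as the only promoter with such a copy and no peak.
Polrmt: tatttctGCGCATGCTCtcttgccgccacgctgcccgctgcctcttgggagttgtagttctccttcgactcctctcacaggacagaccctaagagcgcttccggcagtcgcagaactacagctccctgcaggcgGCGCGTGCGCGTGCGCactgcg
Tfb2m: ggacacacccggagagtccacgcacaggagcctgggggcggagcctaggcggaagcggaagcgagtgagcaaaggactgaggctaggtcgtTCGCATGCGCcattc
Tfam: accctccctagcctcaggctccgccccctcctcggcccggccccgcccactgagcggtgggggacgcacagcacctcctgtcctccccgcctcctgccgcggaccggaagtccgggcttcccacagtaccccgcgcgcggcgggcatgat
Tfb1m: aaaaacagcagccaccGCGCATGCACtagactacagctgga

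Polrmt, the mitochondrial RNA polymerase, lies on chromosome 10 from 79736125 to 79746581 on the minus strand, with 1 known transcript and 1 start. Its peak ran from 79746336 to 79746829, a width of 494 bp, and spanned the start from 248 bp before to 245 bp after it. The summit was 15 bp upstream of the start. Fold enrichment was 21.1 and −log10 q was 61.0. Among the 2607 promoter peaks in the list, which had a median fold enrichment of 11.1 with quartiles of 7.9 and 16.4, 271 were higher than Polrmt and 2335 lower. No other gene had this summit in its promoter.

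In the Polrmt sequence, 2 copies of GCGCGTGCGC overlap at the start itself, at positions -6 to 3 and 0 to 9. Their centres lay 13.5 and 19.5 bp downstream of the summit. The first exon is 117 bp long and its first coding base is at position 29, so the 2 copies straddle the start and the untranslated part of the first exon. The assembly marks them as repetitive sequence. Another copy, GCGCATGCTC, is farther upstream at positions -133 to -124, centred -113.5 bp from the summit. Each of the 3 copies had 1 mismatch.

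Tfb2m encodes the factor that opens promoter DNA together with POLRMT. It lies on chromosome 1 from 179528054 to 179546276 on the minus strand, with 3 known transcripts from 1 start. Its peak ran from 179546196 to 179546409, a width of 214 bp, and its summit was 22 bp upstream of the start. Fold enrichment was 3.98, with −log10 q of 2.84 (q = 1.43e-03). Only 24 promoter peaks had a lower fold enrichment and 2580 had a higher one, so Tfb2m was among the weakest entries in the list. The fold enrichment at Polrmt was 5.3 times that at Tfb2m.

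The Tfb2m peak also fell in a promoter of Cnst, which runs the other way from a start 253 bp upstream of that of Tfb2m, and the summit was 231 bp upstream of the Cnst start. The list does not tell which of these genes the peak belongs to. The copy TCGCATGCGC lies at positions 11 to 20, in the untranslated part of the first exon, whose first coding base is at position 145. Its centre was 37.5 bp downstream of the summit.

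**Figure D1:**
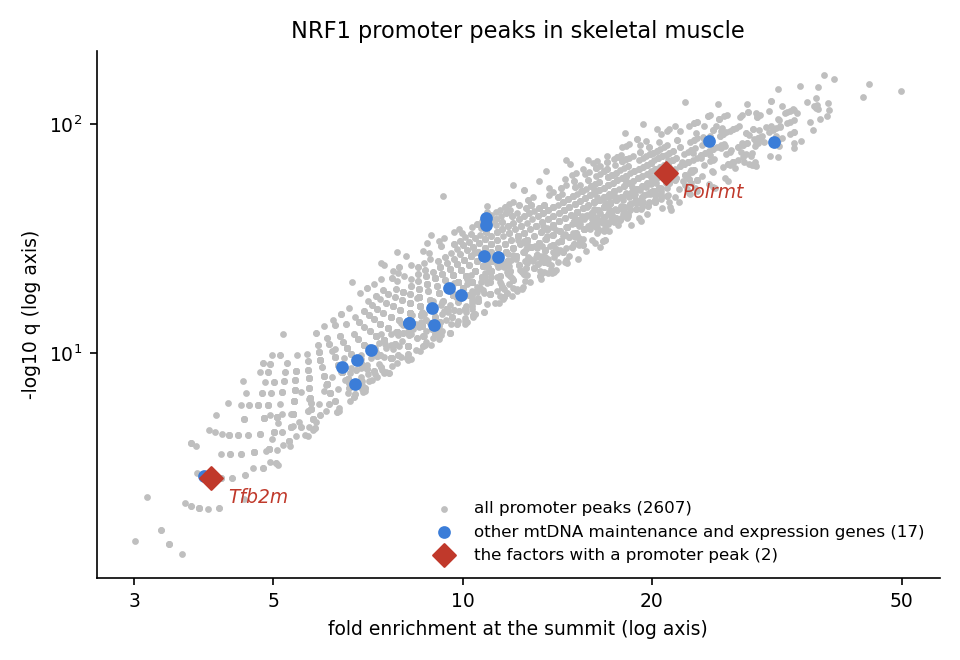
Each point is a promoter peak, with fold enrichment on the horizontal and −log10 q on the vertical axis, both on log scales. Polrmt, at 21.1 and 61.0, sits in the upper part of the cloud of 2607 promoter peaks, and Tfb2m, at 3.98 and 2.84, near its lower end, while blue points are the 17 other genes of mitochondrial DNA maintenance and expression with a promoter peak.

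Both peaks held the palindrome with at most 1 mismatch within 100 bp of the summit. Among all promoter peaks 1719 did, or 65.9%. The share was 27.2% among the 125 promoter peaks with a fold enrichment under 5, where Tfb2m lies, and 88.6% among the 333 with a fold enrichment of at least 20, where Polrmt lies.

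The other genes of the transcription machinery had no promoter peak. Tfam, which packages mitochondrial DNA and bends its promoters, lies on chromosome 10 from 71225477 to 71238044 on the minus strand, with 1 known start. The nearest summit was 106885 bp upstream, at a promoter peak of Cisd1 with a fold enrichment of 16.3. Tefm, the elongation factor of POLRMT, lies on chromosome 11 from 80136678 to 80142153 on the minus strand. It was the farthest from any peak, with the nearest summit 802595 bp downstream in the Nf1 promoter. Mterf3, a member of the mitochondrial termination factor family, lies on chromosome 13 from 66912095 to 66933072 on the minus strand. It was the closest to a peak among the 8, with the nearest summit 27685 bp downstream. That summit lay in a promoter of Uqcrb, which encodes a subunit of respiratory complex III, and of Gm10767.

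Tfb1m is related to Tfb2m but encodes a methyltransferase of the small-subunit ribosomal RNA. It lies on chromosome 17 from 3519250 to 3557755 on the minus strand, and the nearest summit was 243396 bp downstream, outside any promoter and with a fold enrichment of 4.44. Tfb1m and Tfb2m thus differed in this list, although the peak at Tfb2m was weak.

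None of the 4 replication genes had a promoter peak, beside 13.4% of all protein-coding genes, and no difference from the transcription genes was tested. Polg, the catalytic subunit of the polymerase, lies on chromosome 7 from 79446231 to 79466273 on the minus strand and has 2 known starts. Its nearest summit was 766588 bp upstream, in a promoter shared by Cib1 and Gdpgp1. Polg2, the accessory subunit, lies on chromosome 11 from 106768204 to 106779537 on the minus strand, with the nearest summit 141311 bp upstream in the Smurf2 promoter. Ssbp1, which coats single-stranded mitochondrial DNA, lies on chromosome 6 from 40471415 to 40481823 on the plus strand and also has 2 starts. Its nearest summit was 660524 bp upstream, in the promoter of Mrps33, a protein of the mitochondrial ribosome. Mgme1, an exonuclease that trims mitochondrial DNA ends, lies on chromosome 2 from 144270904 to 144281227 on the plus strand, with the nearest summit 259424 bp upstream in the Rrbp1 promoter.

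Across the 8 genes without a promoter peak the median distance to a summit was 251410 bp, and 7 of them were more than 100 kb from one. Over all 18192 protein-coding genes without a promoter peak the median was 186975 bp, with quartiles of 58885 and 585252 bp, and 64.3% were beyond 100 kb. The distances of the 8 genes fell within the range seen for other genes without a peak, and none lay just outside the promoter window. Read depth is unknown from the list, so the lack of a peak does not show that NRF1 was absent.

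**Figure D2:**
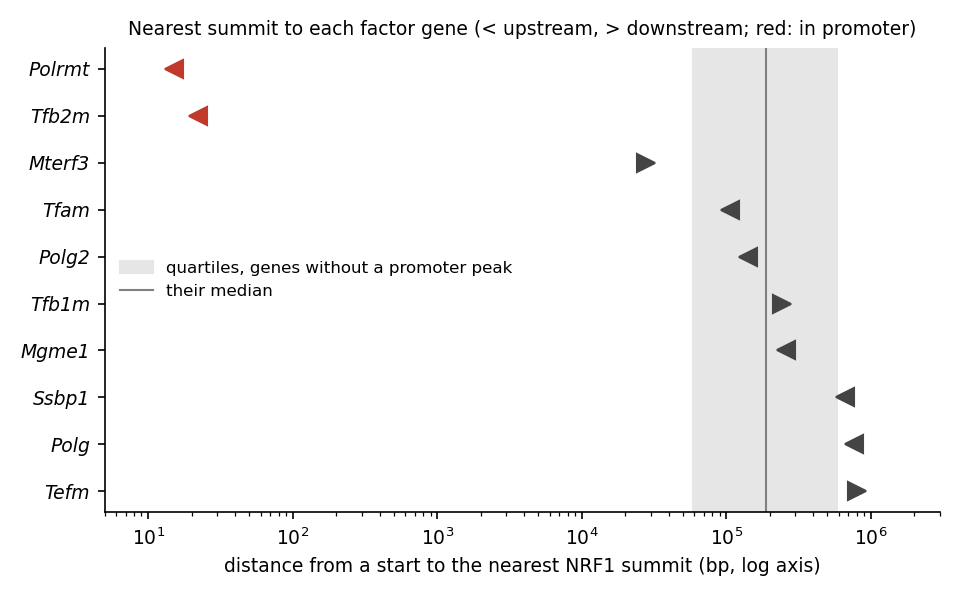
The distance in bp from each gene's start to the nearest NRF1 summit is plotted on a log axis, with arrowheads pointing left for summits upstream and right for summits downstream. Polrmt and Tfb2m (red) are at 15 and 22 bp and the other 8 genes at 27685 to 802595 bp; the grey band and line give the quartiles and median of the 18192 protein-coding genes without a promoter peak.

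The promoters of the 10 genes were then compared for what the choice of genes had not used. All 10 had a CpG-rich start, defined here as at least 50% GC and a ratio of observed to expected CpG of at least 0.6 within 200 bp of a start. That held for 11564 of all protein-coding genes, or 55.1%, and 23.1% of those had a promoter peak. GC content and CpG ratio did not set the 2 promoters with a peak apart. They were 57.6% and 0.904 at Polrmt and 64.1% and 0.942 at Tfb2m. At Tfam, without a peak, they were 70.1% and 0.856, and at Mgme1 68.8% and 1.19, the highest ratio of the group. The lowest values at a CpG-rich start were 56.6% and 0.685, at Tefm. The second start of Polg was outside the definition, with 38.9% and 0.462.

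The promoters of Mgme1 and Tfb1m, without a peak, were shared as well. The Mgme1 start is 2 bp from a start of Snx5, which runs the other way, and the Tfb1m start is 69 bp from that of 1700102H20Rik. A promoter shared by 2 genes was thus present with and without a peak.

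The promoters were also compared for their match to the palindrome. The best match of each in the promoter window is given here on the strand of the gene, with capitals for bases that equal the palindrome and lower case for mismatches, to show how near each came.
Polrmt: GCGCgTGCGC
Tfb2m: tCGCATGCGC
Tfb1m: GCGCATGCaC
Mterf3: GCcCATtCGC
Ssbp1: GCGCgTGCGg
Mgme1: GCGCccGCGC
Tfam: GCcCATGgtC
Tefm: tCGCtTtCGC
Polg: GCGCAgaCGg
Polg2: GtGCcTGCaC

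No promoter of the group held the exact palindrome, which occurred in 1.75% of all protein-coding promoters. Polrmt, Tfb2m and Tfb1m held a copy with 1 mismatch, and 12.1% of promoters held one with at most that. Mterf3, Ssbp1 and Mgme1 had 2 mismatches at best, and 37.3% of promoters had at most 2. Tfam, Tefm, Polg and Polg2 had 3, which 86.8% of promoters reached or bettered. The Tfam match lay at positions -250 to -241, outside the stretch shown above.

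The share of genes with a promoter peak fell with the number of mismatches in the best match. It was 89.4% of 368 genes for the exact palindrome, 73.0% of 2180 genes for 1 mismatch, 13.9% of 5275 genes for 2 mismatches and 1.44% of 10406 genes for 3. Among the 10 genes, 2 of 3 with 1 mismatch had a peak, 0 of 3 with 2 mismatches and 0 of 4 with 3 mismatches. Tfam, Tefm, Polg and Polg2 were thus in the class of promoters in which an NRF1 peak was rarest of the 4 classes.

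**Figure D3:**
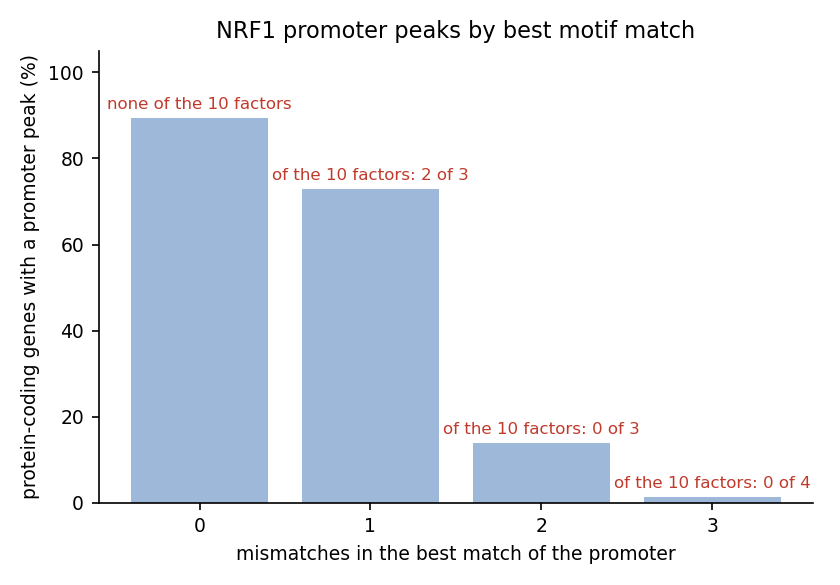
Bars give the percentage of protein-coding genes with an NRF1 promoter peak, by the number of mismatches between the palindrome and the best match in the promoter (368, 2180, 5275 and 10406 genes from left to right). The red text gives the count of the 10 genes in each class with a peak, 2 of 3 at 1 mismatch and none at 2 or 3.

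Position of the match varied too. With a copy of at most 1 mismatch centred within 100 bp of a start, as at Polrmt and Tfb2m, 81.1% of 1679 genes had a promoter peak. Where the nearest such copy was more than 500 bp from any start, 33.7% of 172 genes had one. Tfb1m is one of these 172, with its copy at positions -894 to -885 (chr17:3558640-3558649).

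**Figure D4:**
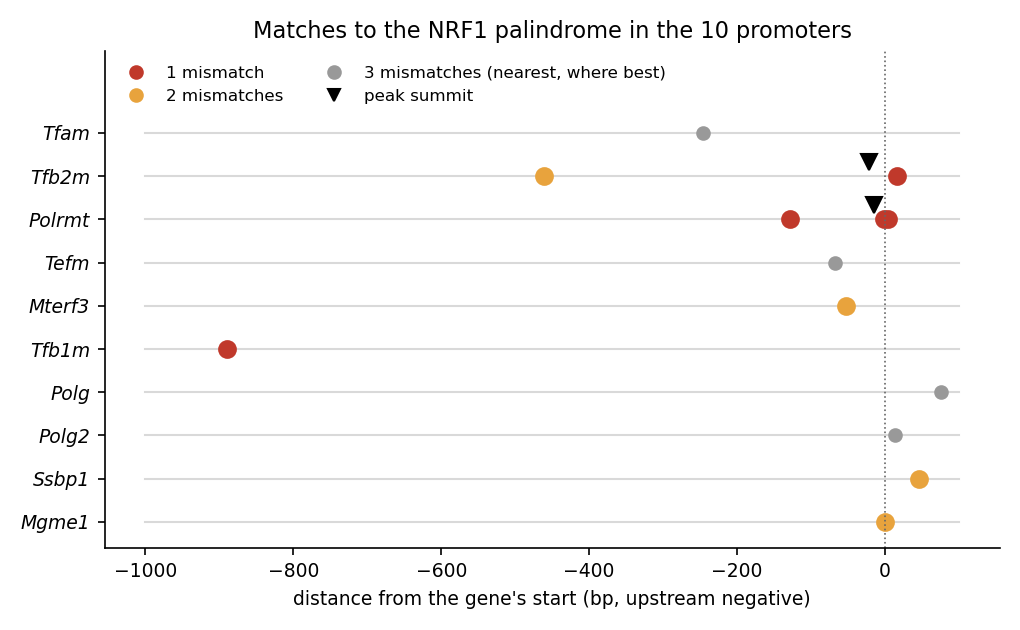
Each line is a promoter, 1000 bp upstream to 100 bp downstream of the start, and circles mark matches to the NRF1 palindrome by number of mismatches, those with 3 only where no better one exists. The summits (triangles) of Polrmt and Tfb2m lie beside copies with 1 mismatch near the start, and the copy of Tfb1m is centred at position -889.5.

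The same letters were looked up on either strand in the promoters of all protein-coding genes. GCGCGTGCGC, the copy at Polrmt, occurred in 634 promoters, of which 80.8% had a peak. It was present within 100 bp of the summit at 432 promoter peaks, or 16.6%, whose fold enrichments ranged from 3.41 to 37.1 around a median of 13.4. TCGCATGCGC, the copy at Tfb2m, was rare, with 16 promoters of which 11 had a peak. At the 7 promoter peaks that held it near the summit, the median fold enrichment was 9.67, and Tfb2m was the lowest of them. GCGCATGCAC, the copy at Tfb1m, occurred in 60 promoters, and 22 of them had a peak. The Mgme1 match GCGCCCGCGC, with its mismatches in the middle, occurred in 309 promoters, of which 68 (22.0%) had a peak. The Tfam match GCCCATGGTC occurred in 43, of which 8 (18.6%) had one. These promoters may hold other, closer copies as well, and a peak need not lie at the copy counted. The Mgme1 match was within 100 bp of the summit at 36 promoter peaks and the Tfam match at 1. Over all protein-coding genes 13.4% had a promoter peak, and among those with a CpG-rich start 23.1%.

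Other genes that keep, repair or express mitochondrial DNA were taken from a list grouped by role. The list was chosen with earlier results of these data known, so its shares describe these genes only and were not tested. Of 57 listed genes 56 had a known coding transcript, and 17 of the 56 had a promoter peak, or 30.4%, beside 13.4% of all protein-coding genes. Of the 51 with a CpG-rich start 16 had a peak, or 31.4%, beside 23.1%. Their fold enrichments had a median of 9.0 and ranged from 3.87 to 31.3, and 14 of the 17 were below the median of all promoter peaks. At 2 of them fold enrichment was above that of Polrmt, and at 1 below that of Tfb2m. The palindrome with at most 1 mismatch lay within 100 bp of the summit at 13 of the 17 peaks, and 14 of the 17 summits were within 100 bp of a start.

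The counts by role that follow are of 4 to 17 genes each, are to be read against the 13.4% of all protein-coding genes, and describe these genes only. Among 10 partners of the replisome and nucleases, 4 had a promoter peak. The exonuclease gene Exog had a fold enrichment of 10.8, Lig3, the DNA ligase of mitochondria, 8.94, the flap endonuclease gene Fen1 8.22 and the helicase-nuclease gene Dna2 6.79. Exog and Dna2 held the exact palindrome in the promoter. The peaks of Fen1 and Lig3 also lay in promoters of Tmem258 and Gm11423. Twnk, the replicative helicase that works ahead of POLG, had no promoter peak, and its nearest summit was 65993 bp away. The topoisomerase gene Top1mt and the primase gene Primpol also had none, with nearest summits 25244 and 69740 bp away.

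Base-excision repair had 2 of 5 genes with a peak, Ogg1 with a fold enrichment of 10.9 and Mutyh with 9.51, both enzymes that deal with oxidised guanine. The Mutyh peak was shared with Toe1. Nucleotide supply had 2 of 10, Sucla2, a subunit of succinyl-CoA synthetase, with 11.4 and Rrm2b, a ribonucleotide reductase subunit, with 3.87. Fen1, Ogg1, Mutyh and Rrm2b were the 4 genes whose peak held no copy near the summit.

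Of the other MTERF genes and transcription regulators, 1 of 6 had a peak. It was Mrpl12, a protein of the mitochondrial ribosome that also binds POLRMT, with a fold enrichment of 9.95. Mterf1a, Mterf1b, Mterf2 and Mterf4 had none, with nearest summits 1665662, 1367228, 25404 and 172994 bp away. With the share of 13.4% over all genes, so few genes give no result about the family. Mterf1a and Mterf1b are similar copies, in which keeping only uniquely mapped reads can lower coverage, and this was not measured here.

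Among the 4 genes for nucleoid proteins and proteases, Clpx, the unfoldase that works with the ClpP protease, had a fold enrichment of 24.7 and Atad3a 10.9, in a promoter shared with Atad3aos. Lonp1, the protease that degrades TFAM, and Clpp had none. Of 17 genes for RNA processing and stability, 6 had a peak. Fastkd3 was the strongest at 31.3, in a promoter shared with Mtrr, followed by Tbrg4 at 9.0, the poly(A) polymerase gene Mtpap at 8.22, Rexo2 at 7.15, Fastkd2 at 6.75, in a promoter shared with Mdh1b, and Lrpprc at 6.43. None of the 4 genes for modification of ribosomal RNA had one, as was the case for Tfb1m. Endog and Prorp were just outside the window, with summits 312 and 356 bp after a start.

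The motif classes ran alike in this list. Of 14 genes with a copy of at most 1 mismatch in the promoter 13 had a peak, and of the other 42 genes 4 did. Over all protein-coding genes the share was 89.4% for the exact palindrome and 73.0% for 1 mismatch. It was 13.9% for 2 mismatches and 1.44% for 3. The counts describe the listed genes only. The exception among the 14 was Pnpt1.

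**Figure D5:**
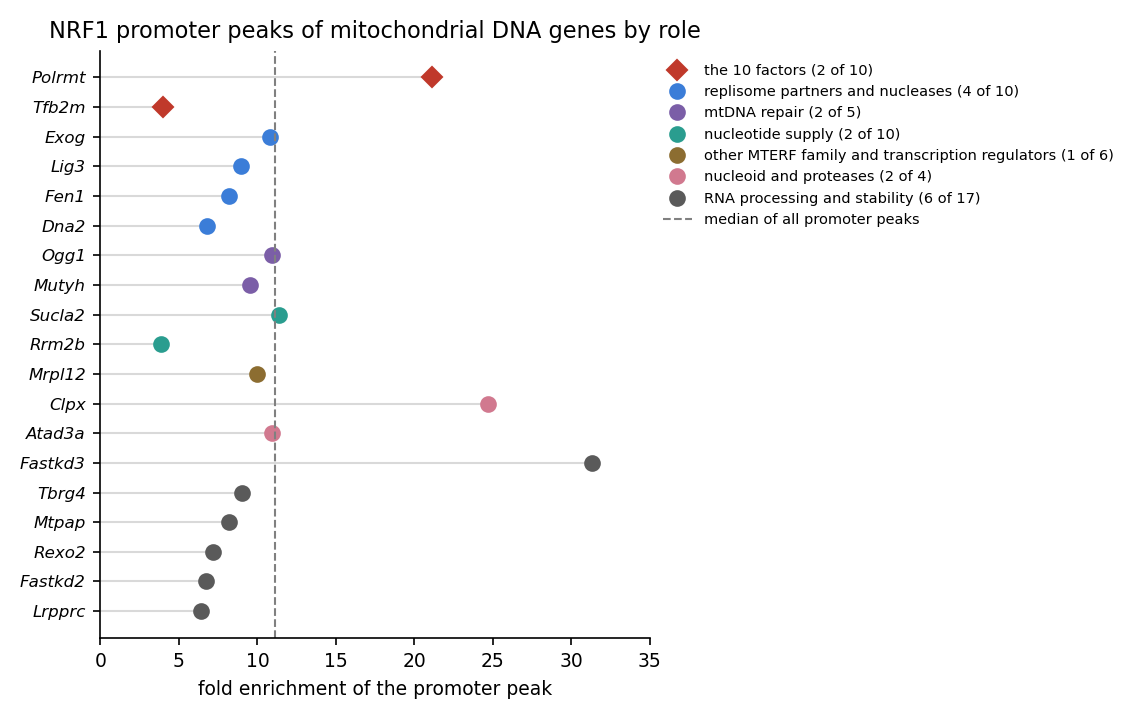
Fold enrichment of the promoter peak is shown for each gene with one, coloured by role, with the dashed line at the median of all promoter peaks (11.1). Polrmt at 21.1 is exceeded by Clpx at 24.7 and Fastkd3 at 31.3, and Tfb2m at 3.98 lies beside Rrm2b at 3.87; the 4 genes for modification of ribosomal RNA are not drawn, since none had a peak.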

How the data were processed

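ChIP-seq libraries of wild-type mouse skeletal muscle were sequenced by the authors as single-end reads, mapped to mm10 with Bowtie (uniquely mapped reads kept), and peaks were called with MACS2 against input DNA. The deposited list has the narrow-peak layout, although the methods name the broad option. Fold enrichment in the deposited list is a ratio of signal to control background, and the p-values and q-values were deposited as −log10. The methods exclude peaks with a false discovery rate above 0.01, but 7 of the 3226 listed exceed it. Whether libraries were pooled is not stated, and depth is unknown. The blacklist named in the methods is that of a human build.

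Starts were those of 45755 known RefSeq transcripts (GRCm38.p6), non-coding transcripts of coding genes included. The palindrome, which reads alike on both strands, was searched by counting mismatches (Python 3.11.15, pysam 0.24.0), and overlapping copies were counted separately. Functions for placing peaks and counting mismatches were tested on simulated data. The genes and lists were chosen with earlier results of these data known. All 10 factors are named, as is each other gene of the pathway list with a promoter peak, and Twnk, Top1mt, Primpol and the other MTERF genes whatever their values; Lonp1, Clpp, Endog, Prorp and Pnpt1 were added after their values were seen. Counts are given beside the share of all protein-coding genes, with no test, since 1 list without replicates gives no error. Alternatives covered the promoter window, the annotation, the peak threshold and the motif search. GENCODE M21 starts, the CpG-rich class and the split by distance of the match were added after seeing the data. Trmt61b, the listed gene with no known coding transcript, was not tested.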

Additional observations from a re-analysis of the deposited data

How the results depend on the processing

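Of 41 alternative values for 7 results, 25 stayed within 1.5 times the value reported (counts), were equal to it (the median fold enrichment) or lay within its Wilson 95% interval (shares of all genes or peaks), and 16 moved. Polrmt kept its promoter peak under every alternative run on the window, annotation and threshold. The Tfb2m peak was lost at a q of at most 1e-05 and at a fold enrichment of at least 5, each of which left 1 gene of the 10 and a median fold enrichment of 21.1 in place of 12.5, by the construction of these thresholds. No other gene of the 10 gained a peak in any of these alternatives, among them a window of 2000 bp upstream to 500 bp downstream and GENCODE M21 basic starts. With no mismatch, 0 of the 2 promoter peaks held the palindrome and 0 of the 10 promoters did, and the share of all promoter peaks was 10.9% in place of 65.9%. That share was 91.0% with at most 2 mismatches and 59.0% within 50 bp of the summit. With at most 2 mismatches 6 promoters did in place of 3. The wider window added a copy at Tefm, for 4 promoters. The number of other genes of the pathway with a peak ranged from 16 to 19, and the share of all protein-coding genes from 12.8 to 14.7%.

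No replicate was left out, since there is 1 peak list. No paired analysis was possible because there is only 1 list and 1 group. Unknown depth limits what can be said of genes without a peak.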

Other observations

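The mitochondrial chromosome, on which the products of these genes act, carried 3 entries of the peak list, at positions 1 to 6451, 10987 to 15687 and 15927 to 16299. Together they covered 11525 of its 16299 bp. Their fold enrichments were 2.7, 2.7 and 2.46, and only 17 peaks of the list were lower than the lowest of them, while −log10 q was 39.8, 39.6 and 29.4. The first 2, 6451 and 4701 bp wide, were the only peaks of the list wider than 4000 bp. None of the 3 had a copy of the palindrome with at most 1 mismatch within 100 bp of its summit. What these entries come from was not tested.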
